A study of Homo sapiens with 7 samples.

Results

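The genes described here are 10 survival and death members of the BCL2 family, BCL2, BCL2L1, MCL1, BAX, BAK1, BID, BBC3, PMAIP1, BCL2L11 and BAD, in HCT116 cells, a line grown from a human colon carcinoma. They were chosen by name, and all 10 were found among the 20423 genes of the expression file. The values come from 1 polyA RNA library of HCT116 cells with no replicate, so no value has an error, no difference between genes was tested, and the depth of the library is unknown. The labels do not say whether the cells of this library carried a transposon or were grown under drug selection. The rest of the study, not used here, maps piggyBac transposon insertions in the same cell line, made by an SP1 fusion of the transposase (2 libraries) or by the wild-type transposase (3 libraries), and holds 1 list of SP1 ChIP-seq peaks.

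BCL2 family proteins decide whether the outer membrane of the mitochondrion stays intact. The effectors BAX and BAK1 form pores in it and release cytochrome c, which starts the caspase cascade. Survival members such as BCL2, BCL2L1 (BCL-xL) and MCL1 hold the effectors in check, and BH3-only members, named for the short helix they share with the rest of the family, bind survival members or activate the effectors when a cell is stressed. Much of this control acts on the proteins, through phosphorylation, cleavage and degradation, which RNA levels do not show.

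In this library BCL2L1 stood far above every other member, BCL2 was below 1 RPKM and BBC3 was listed at 0. Levels are given in RPKM, read counts scaled to transcript length and to the size of the library, which allows genes to be set beside each other. From the highest to the lowest the order was BCL2L1 at 169 RPKM, BAX at 40.3, PMAIP1 at 24.6, MCL1 at 23.5, BAD at 23.1, BID at 13.1, BAK1 at 10.8, BCL2L11 at 4.27, BCL2 at 0.540, with BBC3 listed at 0. The step from BCL2L1 to BAX was 4.20-fold, and the step from BCL2L11 to BCL2 was 7.92-fold. PMAIP1, MCL1 and BAD lay within 1.06-fold of each other, and with 1 library their order cannot be told from noise. Of the 10 members 8 had at least 1 RPKM, against 57.0% of all genes, and 7 had at least 10 RPKM, against 24.4% of all genes. The median was 18.1 RPKM over the members and 1.91 RPKM over all genes.

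**Figure D1:**
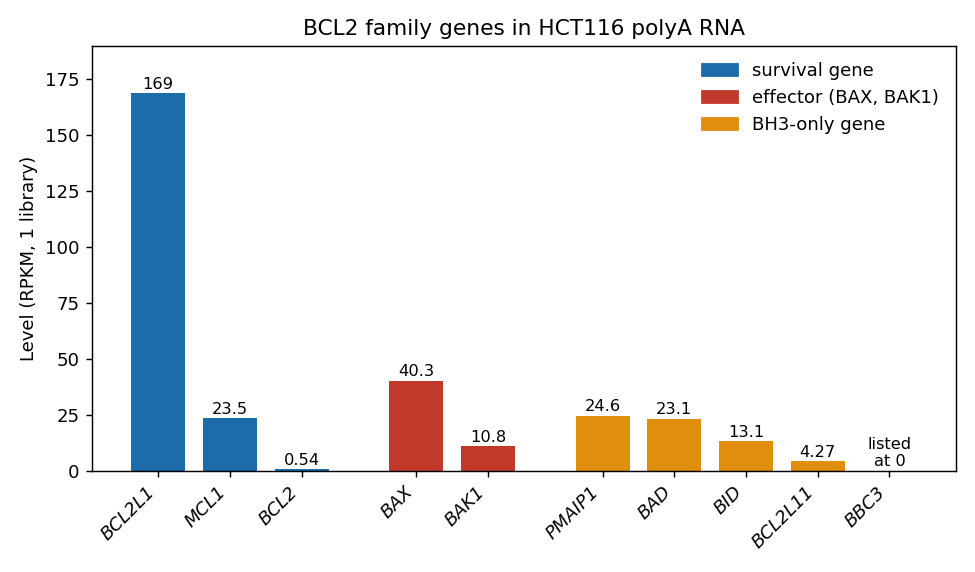
Level of each member in RPKM (vertical axis, linear from 0) in the 1 RNA library, grouped as survival, effector and BH3-only genes and sorted within each group. BCL2L1 at 169 RPKM stands above the other 9 members, which reach at most 40.3 RPKM.

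The members above 0 ran from rank 278 to rank 12663 among the 20423 genes. BCL2L1 had rank 278, so that only 1.36% of genes were at its level or higher, and its neighbours in level were the ribosomal protein genes RPL17 at 168.9 RPKM and RPL6 at 168.4 RPKM. BAX had rank 1435, between ESRP1, a splicing regulator of epithelial cells, at 40.28 RPKM and PRC1, a gene of cell division, at 40.23 RPKM. PMAIP1, MCL1 and BAD had ranks 2340, 2434 and 2467. PMAIP1 lay next to RPA3 and LOC541471, at 24.62 and 24.59 RPKM, MCL1 next to TMEM63B and NFIC, at 23.54 and 23.53 RPKM, and BAD next to NSUN5P2 and TXNL1, at 23.14 and 23.13 RPKM. BID and BAK1 had ranks 4106 and 4737, BID next to ACYP1 and PI4KAP2 and BAK1 next to AMOTL2 and METTL2A. BCL2L11 had rank 7928, above 61.2% of genes, next to HCG18 and LRCH3 at 4.28 and 4.27 RPKM. BCL2 had rank 12663 and lay above 38.0% of genes, beside WDR72 at 0.540 RPKM and ADRB1, a receptor for adrenaline, at 0.539 RPKM. These genes are neighbours in level in 1 library only, since likeness of pattern cannot be measured in 1 sample.

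**Figure D2:**
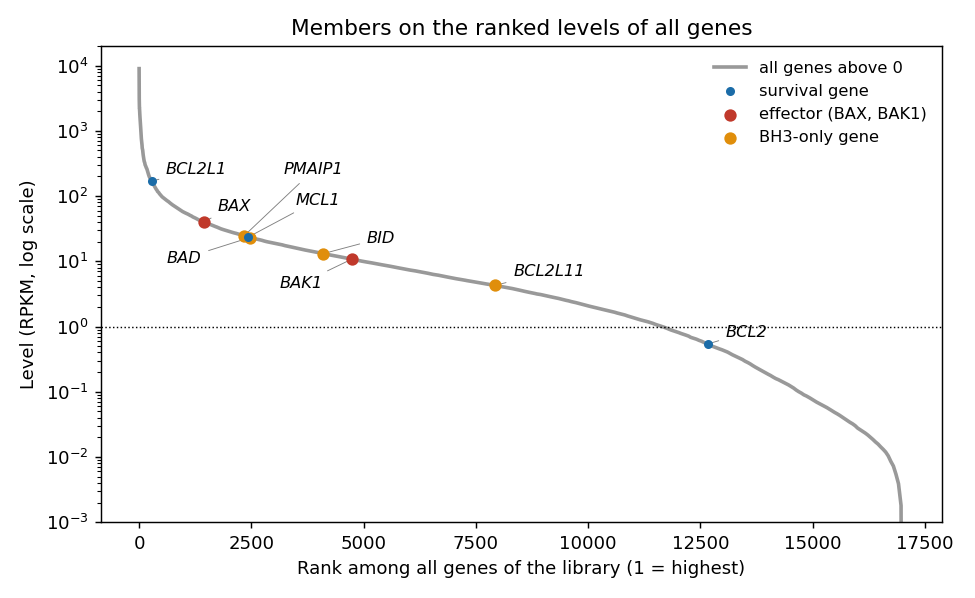
Level in RPKM (vertical axis, log scale) against rank among all genes (horizontal axis) for genes above 0. The grey line is all genes, the points are the 9 members above 0 (survival genes as smaller points), and the dotted line marks 1 RPKM; BCL2 at rank 12663 is the only point below it, and BBC3, listed at 0, is not drawn. The points of PMAIP1, MCL1 and BAD overlap.

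For the sequence context of these genes, the 250 bases before each RefSeq start site (GRCh38.p14) were read. Of the 10 members 9 were matched by symbol, with 15 windows between them because a gene can have several starts; the windows of BID overlap in part, as do those of BAD. MCL1 was not matched. Exact matches were counted on both strands for the GC box GGGCGG, the core of the sequence that SP1 binds, the CCAAT box CCAAT, the E-box CACGTG, which reads the same on both strands, and the TATA box TATAAA. Matches that overlap were each counted, which concerned 2 GC boxes in the fourth window of BID. The motifs other than the GC box were chosen after the windows had been seen. A match is only a run of letters: binding at these windows was not analysed here, since the ChIP-seq peaks are placed on an older build, hg18. A GC box was found in 10 of the 15 windows, against 42.6% of the 35116 windows of all genes. By gene it was found in 6 of the 9 members, against 46.2% of all genes with a window. Shares of genes in this paragraph are over 27305 genes with a window, of which 12634 are in the expression file. Of these 12634 genes 4353 had no GC box, as did BCL2, BCL2L1 and BBC3 among the members. The 46.2% is therefore not the share among genes of the file. A CCAAT box was found in 6 windows of 5 members, against 32.0% of all windows and 37.0% of genes. An E-box was found in 4 windows of 3 members, against 6.34% of windows and 7.73% of genes, and a TATA box in 1 window of 1 member, against 10.7% of windows and 13.0% of genes. Overlapping windows of BID and of BAD hold the same matches more than once, so the counts of members are the ones without repeats. Counts of members are in turn not adjusted for the number of windows, 15 for 9 members against 35116 for 27305 genes. A gene with more windows has more chances of a match. The median GC content was 68.8% over the windows of the members and 58.0% over all windows. In the sequences below the capitals mark matches, and the windows shown are those of the highest survival, effector and BH3-only member and of the member listed at 0.

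The survival genes spanned the widest range of the 3 groups. BCL2L1, whose long form blocks pore formation, had 169 RPKM, which was 7.18 times the level of MCL1 at 23.5 RPKM and 313 times that of BCL2 at 0.540 RPKM. MCL1, a short-lived protein that guards BAK1 in particular, was 43.6 times as high as BCL2, the founding member of the family, known from the chromosome translocation of follicular lymphoma. BCL2L1 alone made up 87.5% of the summed level of the survival genes. BCL2L1 also encodes the short form BCL-xS, which promotes death, and RPKM per gene does not separate the forms; RefSeq now lists 11 transcripts for it. The antisense gene BCL2L1-AS1 overlaps it in RefSeq, and without a stated strand their reads cannot be told apart. The table of starts holds 2 windows for BCL2L1. The first, on the minus strand at chr20:31723964-31724213, had 50.0% GC, no GC box and 2 TATA matches, whose first bases lay at -208 and -125 from the start. The second had 60.4% GC and no match to any of the 4 motifs, and neither did the window of BCL2, which had 70.0% GC.
BCL2L1 window 1: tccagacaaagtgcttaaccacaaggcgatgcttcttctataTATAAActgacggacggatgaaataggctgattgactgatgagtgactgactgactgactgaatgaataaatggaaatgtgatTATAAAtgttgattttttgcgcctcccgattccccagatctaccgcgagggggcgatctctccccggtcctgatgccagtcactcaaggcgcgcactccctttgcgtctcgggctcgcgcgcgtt

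Of the effectors BAX was the higher. BAX, which moves from the cytosol to the mitochondrion on activation, had 40.3 RPKM and was 3.73 times as high as BAK1, which resides in the mitochondrial membrane, at 10.8 RPKM. The level of BCL2L1 was 4.20 times that of BAX. The BAX window, on the plus strand at chr19:48954625-48954874, held 4 E-boxes, at -138, -93, -45 and -14 from the start, and the third began 7 bases after the first base of its only GC box, at -52. Of all 35116 windows 5, or 0.0142%, held 4 or more E-boxes. The threshold of 4 is the count of the BAX window itself, so this share describes and is not a test. The CCAAT box occurred in it at -203 and -148, on the opposite strand. The BAK1 window had 58.0% GC, 2 GC boxes and 1 CCAAT box. RefSeq lists the pseudogenes BAK1P1 and BAK1P2, and how reads with several matching places were counted is not given here, which leaves the value of BAK1 uncertain in that respect.
BAX: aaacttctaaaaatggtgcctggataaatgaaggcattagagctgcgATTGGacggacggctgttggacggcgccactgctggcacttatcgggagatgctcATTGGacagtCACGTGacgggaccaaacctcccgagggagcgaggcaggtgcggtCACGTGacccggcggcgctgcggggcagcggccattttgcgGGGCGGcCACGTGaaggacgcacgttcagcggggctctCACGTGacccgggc

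Among the BH3-only genes PMAIP1 and BAD were highest and nearly level. PMAIP1 (NOXA), a stress-induced member that binds MCL1, had 24.6 RPKM, 1.05 times the 23.5 RPKM of MCL1. BAD, which binds BCL2 and BCL2L1 and is held in the cytosol by 14-3-3 proteins when phosphorylated, had 23.1 RPKM. BAD overlaps the gene GPR137 in RefSeq, and how reads in the overlap were assigned is not given here. BID, which caspase-8 cuts to carry the death receptor signal to the mitochondrion, had 13.1 RPKM. BCL2L11 (BIM), which binds all survival members and activates BAX and BAK1, was lowest of those above 0, at 4.27 RPKM, and PMAIP1 was 5.76 times as high. RefSeq now lists 33 transcripts of BCL2L11, more than of any other member, and they too are summed or chosen within 1 value.

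BBC3 (PUMA), which binds all survival members, was listed at 0, as were 16.6% of all genes. Genes that most cells use were also among those at 0, such as YWHAZ, which encodes a 14-3-3 protein. The value is therefore given as listed and not as absence of the transcript, and no fold against BBC3 was computed.

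In this group every member but BBC3 had a GC box in at least 1 window. PMAIP1 held 4 of them in 1 window, at -146, -106, -94 and -82, the last 3 at equal spacing, and had 72.8% GC. Of all windows 7.63% held 4 or more, a threshold equal to the count in PMAIP1. The overlapping windows 2 and 3 of BID also held 4 each, and those of BCL2L11 and BAD held 3 and 1. The only BBC3 window had 49.2% GC and no GC box, with 1 E-box at -232 and 1 CCAAT box at -87. RefSeq now lists 7 transcripts of BBC3, and any start outside this window was not read. The PMAIP1 window lies on the plus strand at chr18:59899746-59899995 and the BBC3 window on the minus strand at chr19:47232668-47232917.
PMAIP1: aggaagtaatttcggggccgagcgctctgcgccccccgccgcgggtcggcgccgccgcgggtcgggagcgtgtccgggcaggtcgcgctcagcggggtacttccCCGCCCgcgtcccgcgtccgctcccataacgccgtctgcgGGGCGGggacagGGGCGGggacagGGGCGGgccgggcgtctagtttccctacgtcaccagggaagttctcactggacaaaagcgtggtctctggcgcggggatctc
BBC3: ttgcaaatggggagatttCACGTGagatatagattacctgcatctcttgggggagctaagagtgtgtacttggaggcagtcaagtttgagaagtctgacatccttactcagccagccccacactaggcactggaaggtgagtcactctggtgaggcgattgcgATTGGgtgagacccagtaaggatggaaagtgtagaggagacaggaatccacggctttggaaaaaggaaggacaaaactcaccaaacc

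**Figure D3:**
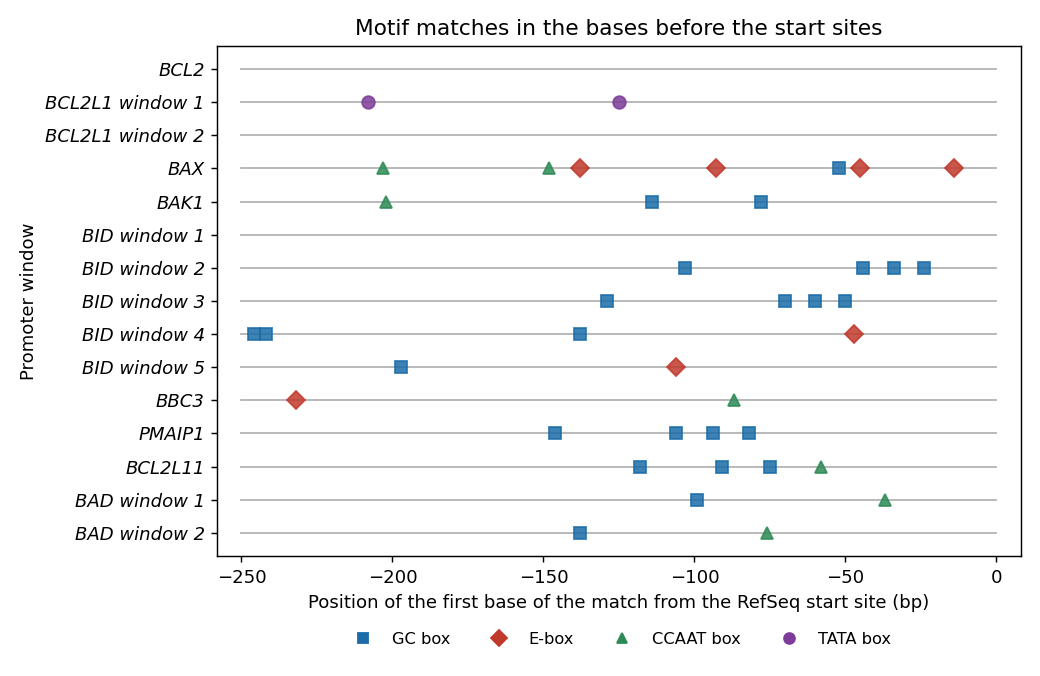
Position of the first base of each motif match (horizontal axis, bp from the RefSeq start site) in the 15 windows of 9 members (one line each). Squares are GC boxes, diamonds E-boxes, triangles CCAAT boxes and circles TATA boxes; the BAX window carries 4 E-boxes, the PMAIP1 window 4 GC boxes, and 3 lines carry no match.

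Among genes matched to a window, those without a GC box had lower levels than those with several. BCL2L1 was high without one in the windows read. Matched to a window were 12634 genes of the file, of which 62.4% reached 1 RPKM, against 57.0% of all genes. Each gene was counted by its window with the most GC boxes, so genes with more windows had more chances of a high count. Genes with no GC box in any window had a median of 0.303 RPKM, and 40.4% of them reached 1 RPKM. Genes with 1, 2 or 3 had medians of 3.93, 5.03 and 4.94 RPKM. Genes with 4 or more had a median of 6.53 RPKM, and 81.8% of them reached 1 RPKM. BCL2L1, with no GC box in its 2 windows, was at 169 RPKM, and BCL2, also without one, was at 0.540 RPKM. RefSeq now lists 11 transcripts of BCL2L1 and 6 of BCL2, and any start outside these windows was not read. Which start was used in this library is not known. BBC3 had none in its window either, and its value of 0 is not read as a level. GC boxes go with GC content. The parts of the motif, of GC content and of the number of windows in this pattern were not tested.

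Summed over each role, survival genes outweighed death genes in this library, but the direction depended on BCL2L1 and on how the genes were combined. The summed level was 193 RPKM for the 3 survival genes, 51.0 RPKM for the 2 effectors and 65.1 RPKM for the 5 BH3-only genes. The ratio of survival to all 7 death genes was 1.66, and without BCL2L1 it was 0.207. BBC3 entered these sums as 0 and does not change them. A ratio of geometric means gives the 0 more weight: with 0.1 RPKM added to each gene it was 1.80 with BBC3 and 0.875 without it. BCL2L1 made up 54.6% of the sum over all 10 members. These are sums of RNA levels and do not give the balance of the proteins.

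The 11 other genes of the family were on the whole lower than the members, with a median of 0.751 RPKM. At least 1 RPKM was reached by 5 of the 11, against 57.0% of all genes. BOK, a relative of BAX and BAK1, stood at 17.0 RPKM, 1.57 times BAK1, and overlaps the antisense gene BOK-AS1. BCL2L2 (BCL-w), a further survival gene, stood at 16.5 RPKM, 30.6 times BCL2, and overlaps the readthrough gene BCL2L2-PABPN1. BIK, a BH3-only gene, stood at 15.6 RPKM and BCL2L13 at 13.4 RPKM, and HRK, known from neurons, at 2.22 RPKM. The BH3-only gene BMF had 0.751 RPKM, the survival gene BCL2A1, best known in blood cells, 0.237, BCL2L14 0.0445 and BCL2L15 0.0172. BCL2L10 and BCL2L12 were listed at 0, with the same limit as for BBC3. BCL2L12 overlaps the gene IRF3 in RefSeq, which also lists the pseudogene BCL2L12P1.

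Downstream of the family, most genes of a list of apoptosome, caspase and further mitochondrial proteins were present at moderate levels. Of its 9 genes 8 had at least 1 RPKM, against 57.0% of all genes, with a median of 8.97 RPKM. The 3 that reached 10 RPKM all encode mitochondrial proteins that are neither caspases nor part of the apoptosome. DIABLO (SMAC), which mitochondria release to block IAP proteins, was the highest at 23.8 RPKM, ahead of the mitochondrial nuclease gene ENDOG at 18.3 and of AIFM1 at 11.4. The lowest were APAF1, the scaffold of the apoptosome, at 0.934 RPKM, CASP6 at 4.08 and CASP9, the initiator caspase that the apoptosome activates, at 6.996. Of 7 IAP genes, whose products inhibit caspases or guard the dividing cell, 4 reached 1 RPKM, near the 57.0% over all genes. BIRC5 (survivin), a gene of dividing cells, stood out at 53.3 RPKM, followed by BIRC6 at 4.69 and BIRC2 at 4.12. XIAP, the direct caspase inhibitor, had 1.02 RPKM, and BIRC7, NAIP and BIRC3 had 0.849, 0.418 and 0.345 RPKM.

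Of 10 genes of the death receptor route, receptors and the proteins that act with them, 7 reached 1 RPKM, against 57.0% of all genes. This route reaches the family through BID. The median of the 10 was 6.38 RPKM, and 7.38 RPKM without the 2 genes listed at 0. TNFRSF1A, the main TNF receptor, was highest at 56.2 RPKM, then the adaptor FADD at 17.1 and the TRAIL receptor TNFRSF10A at 12.8. CASP10 had 0.477 RPKM. FAS and the other TRAIL receptor, TNFRSF10B, were listed at 0, with the same limit as for BBC3.

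Genes that act on the members had the highest median of the 5 apoptosis lists, at 36.0 RPKM. Of these 19 genes 18 had 1 RPKM or more, against 57.0% of all genes. The 3 highest all encode 14-3-3 proteins, which bind phosphorylated BAD, with YWHAE at 181 RPKM, SFN at 134 and YWHAQ at 88.0. The list was composed with further 14-3-3 genes in it. YWHAZ among them was listed at 0, with the same limit as for BBC3. The lowest above 0 were the ubiquitin ligase genes FBXW7 at 2.96 RPKM and BTRC at 3.61 and the transcription factor FOXO3, an inducer of BCL2L11, at 5.17.

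**Figure D4:**
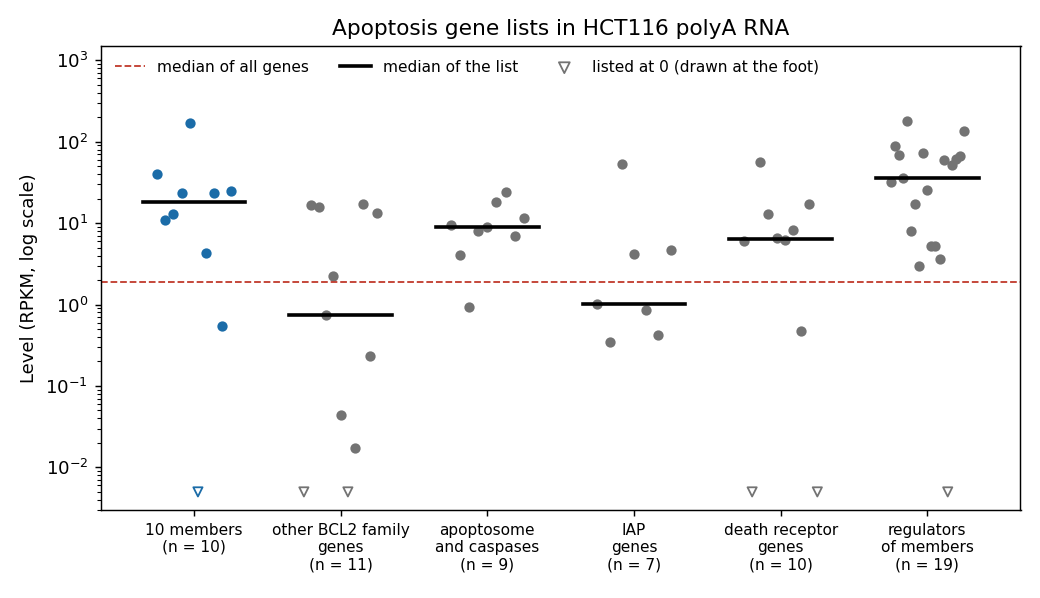
Level in RPKM (vertical axis, log scale) of every gene of the members and of 5 apoptosis lists, 1 point per gene, with the median of each list (black bar) and of all genes (dashed line, 1.91 RPKM). Genes listed at 0 are open triangles at the foot; the medians run from 0.751 RPKM for the other BCL2 family genes to 36.0 RPKM for the regulators.

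The library carried the markers of an epithelial line in the main. Of 10 epithelial markers 8 had at least 1 RPKM, against 57.0% of all genes, with KRT19 at 543 and EPCAM at 79.5 RPKM. The markers of mature intestinal cells KRT20 and VIL1 were near 0, at 0.238 and 0.0313 RPKM. Of 7 leukocyte markers only CD68, at 8.65 RPKM, reached 1 RPKM, and of 8 fibroblast and endothelial markers only COL1A1, at 14.5 RPKM, did. PTPRC and CD3E were listed at 0.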

How the data were processed

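The levels are RPKM values deposited by the authors, 1 per RefSeq gene, calculated with Cufflinks from TopHat alignments to hg18, per the deposited readme. The submitters' processing notes give 1.1.0 as the version of Cufflinks. The treatment of multi-mapping reads and of isoforms, the strandedness and the depth are not stated in the labels or the readme. From these values ranks, shares of genes, sums and ratios were computed with Python 3.11.15 and pandas 2.3.3. A filter or pseudocount was used only where stated. With 1 library, no test, error or interval was possible, and thresholds of 1 and 10 RPKM only describe. Gene names, transcript numbers, overlaps between genes and promoter windows came from RefSeq (GRCh38.p14). Insertions and SP1 peaks were not placed at the members because no gene positions on hg18 were used here. The members and lists were chosen with earlier results of these data known. All members were named, those above 0 with their neighbours in level, and of each apoptosis list the 3 highest, the 3 lowest and those listed at 0, and all other BCL2 family genes. XIAP, FOXO3 and the cell type markers given were named after their values were seen. Of the planned lists 3 genes are not reported here and were left out of every list count and median.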

Additional observations from a re-analysis of the deposited data

How the results depend on the processing

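The count of members at or above 1 RPKM, 8, became 7 at 10 RPKM and 9 at 0.1 RPKM, where the shares of all genes were 24.4% and 71.9%. Over genes not listed at 0 that background for 1 RPKM was 68.4%. The median member lay above 83.9% of all genes, above 85.5% of genes not listed at 0 (9 members) and above 78.9% of genes at or above 1 RPKM (8 members). The ratio of survival to death genes, 1.66, was 1.59 with 1 RPKM added to each gene, 1.66 and 1.80 as a ratio of geometric means with pseudocounts of 1 and 0.1 RPKM, and 1.38 with the other BCL2 family genes of known class added. It turned to 0.469 without the highest member of each class. Other alternatives were added after the data had been seen: the ratio of medians was 1.79, and without BCL2L1 the ratio of sums was 0.207. Without BBC3, whose 0 may not be a level, the ratio of sums stayed at 1.66, that of medians was 1.30, and those of geometric means were 1.11 and, reversed, 0.875 with pseudocounts of 1 and 0.1 RPKM. Scaled so that all genes sum to 1000000, BCL2L1 had 493 and BCL2 1.58. The planned count of peaks and insertions at the members was not run. No paired analysis was possible because the result comes from 1 library and no test. Depth limits the values of low genes most, by an amount that 1 library of RPKM values cannot show.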
